A study of Rattus norvegicus with 6 samples.

Results

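miR-210 was measured in rat tendon-derived stem cells (rTDSCs) with and without 7 days of mechanical loading. It was taken as the array feature whose systematic name is rno-miR-210, which is 1 of the 677 rat miRNAs on the array, and it is represented by 2 probes of 10 spots each per array. The cells came from patellar tendons of 8-week-old male Sprague Dawley rats, their colonies were mixed, and passage 3 was plated on flexible membranes coated with collagen type I. In the loading group (3 samples) the membranes were stretched cyclically along 1 axis, by 10% of their length and at a frequency of 0.5 Hz, during 8 h of each day, and in the non-loading group (3 samples) they were not stretched over the same 7 days. Total RNA was labelled with Cy3 and hybridised to Agilent rat miRNA arrays, 1 array per sample, on a single slide that held all 6. No source used here says that the replicates came from separate animals or cultures, so the spread between them may be technical. miR-210 was selected on its signal and its change under loading on these same arrays, so its values are described below and carry no test. As RNA of whole cultures was measured, more miR-210 per cell and more cells that express it cannot be told apart.

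miR-210 is the best known miRNA of the hypoxia response. Its gene is activated by hypoxia-inducible factors (HIFs), the transcription factors that accumulate when oxygen is low, and the miRNA lowers, among others, the iron-sulphur cluster scaffold ISCU and thereby mitochondrial respiration, as well as the ephrin EFNA3 in endothelial cells. Like other miRNAs it is cut from a hairpin precursor, and bases 2 to 8 of the mature strand, the seed, pair with target mRNAs. In rat Achilles tendon, injected miR-210 has been linked to early healing.

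The mature sequences are shown because the array also holds miR-3574, which lies antisense to miR-210 at the same locus. They are from RefSeq (GRCr8), written 5′ to 3′ with the seed in capitals.
rno-miR-210-3p: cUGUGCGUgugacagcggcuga
rno-miR-210-5p: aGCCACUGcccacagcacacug
rno-miR-3574: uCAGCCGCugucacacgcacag
The name rno-miR-210 of the array is the older name of the 3p arm. The files hold no probe sequences, so the arm rests on that name, and the array carries no feature named for the 5p arm. The seed of miR-210-3p occurs once among the 724 mature entries of the RefSeq table, so none of the other 723 shares it. Its GC content of 63.6% is high for a miRNA, with a median of 47.6% over those entries and 57 entries above it. The 110-base hairpin lies on the minus strand at chr1:205755923-205756032, and the mature 3p arm, in capitals here, occupies its bases 66 to 87.
Mir210 hairpin: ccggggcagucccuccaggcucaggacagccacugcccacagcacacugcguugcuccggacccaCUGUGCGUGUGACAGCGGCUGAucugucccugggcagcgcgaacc
In the gene table of the same assembly the hairpin overlaps the long non-coding RNA LOC102553043, with Rassf7 and Phrf1 as the nearest protein-coding genes on either side. It also overlaps Mir3574 on the plus strand. Mature miR-3574 covers the same positions, chr1:205755946-205755967, and all 22 of its bases equal the reverse complement of miR-210-3p.

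The scanner software detected 140 to 186 miRNAs per array, 0 spots were saturated, and the standard deviation of the negative-control spots was 1.80 to 2.28 intensity units. Of 8 miRNAs that mark mesenchymal cells, 7 were detected on all 6 arrays, miR-21 with the highest signal of all. Of the markers of other cells, those of skeletal muscle (4), epithelium (6), neurons (2) and liver (1) were detected on no array, and so were 4 of 5 markers of blood cells. The fifth, miR-223, was detected on 2 of the 3 non-loading arrays and on all 3 loading arrays. The summed signal of the blood list was -2.29% to 6.81% of the array's 75th percentile (defined below) without loading and 3.54% to 7.67% with it. The endothelial miR-126 was detected on all 6 arrays, at 2.77% to 4.91% and 3.91% to 5.36% of that percentile. Both lists were dim and overlapped between the groups, and their part in the values of miR-210 was not tested.

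Every one of the 120 spots of miR-210 was well above background. The brighter of its probes had a mean background-subtracted intensity of 133.3, 147 and 127 units on non-loading replicates 1, 2 and 3, and of 189.5, 168 and 181.1 units on loading replicates 1, 2 and 3. All 3 loading arrays were above all 3 non-loading arrays before any scaling. The dimmer probe gave 47.9, 58.2 and 49.1 units without loading and 75.8, 58.8 and 66.6 units with it. Here the groups were also apart, but only by 0.54 units, between loading replicate 2 and non-loading replicate 2. The spots of a probe varied little within an array, with a coefficient of variation of 4.30% to 6.85% for the brighter probe and 4.70% to 13.4% for the dimmer one. The standard error over the spots was thus at most 4.25% of a probe's mean. Spots share 1 hybridisation and are no replicates of a condition. Of the 30 loading spots of the brighter probe, 23 were above the highest of the 30 non-loading spots (162 units), as were 18 of 30 for the dimmer probe (63.7 units), and 0 of the 30 non-loading spots of either probe exceeded the median loading spot.

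**Figure D1:**
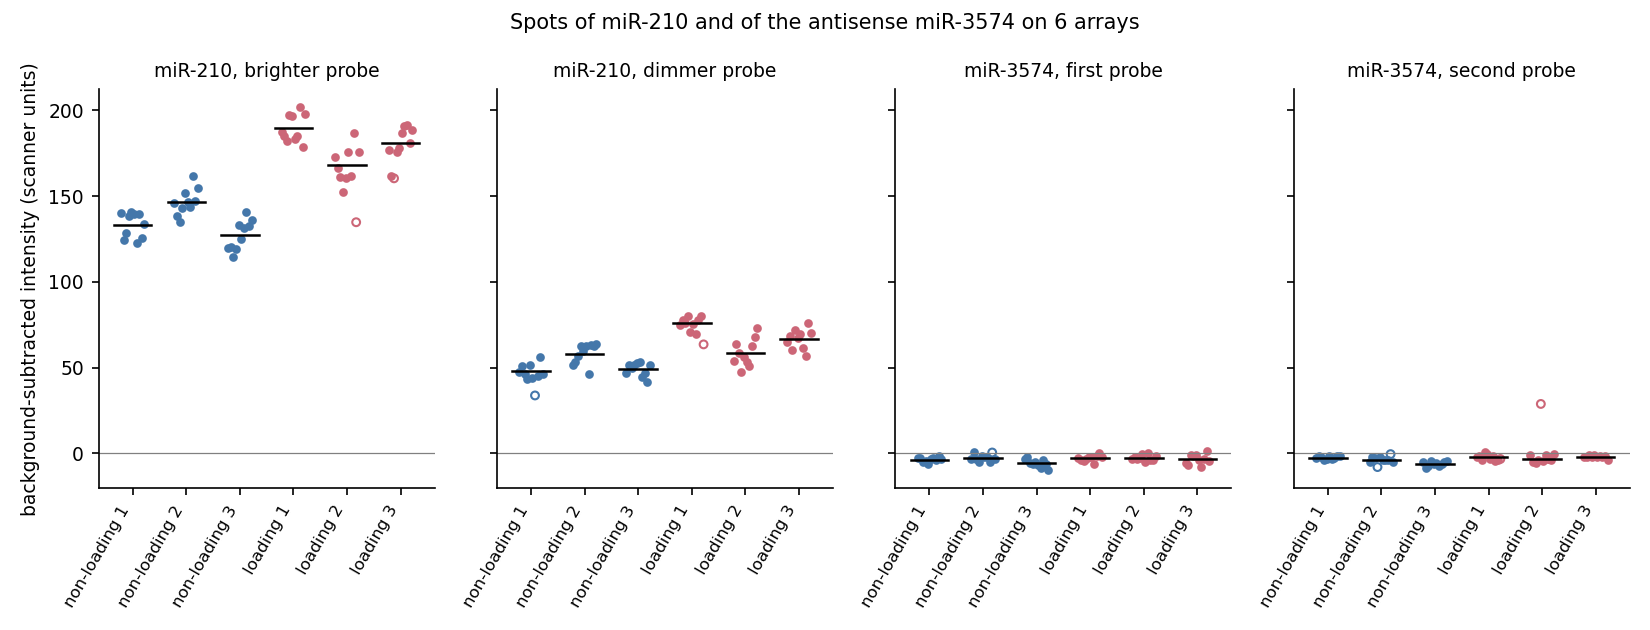
Background-subtracted intensity (scanner units) of each spot of the miR-210 probes and of the probes of the antisense miR-3574 on the 6 arrays, with the non-loading arrays in blue and the loading arrays in red. Black bars are the means over spots without an outlier flag and open circles are outlier-flagged spots; miR-210 means lie between 47.9 and 189.5 units, and those of miR-3574 lie below 0.

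The probes of miR-210 kept their proportion. The dimmer one gave 36.0%, 39.7% and 38.6% of the brighter one on the non-loading arrays, and 40.0%, 35.0% and 36.8% on the loading arrays. The means of 38.1% ± 1.91 (SD, n = 3) and 37.3% ± 2.56 (SD, n = 3) differed by less than the spread between arrays. Within an array some print positions were bright or dim throughout. For the brighter probe, 2 of the 10 positions were above the probe's mean on 6 of 6 arrays, by 0.11 ± 0.04 and 0.06 ± 0.03 on the log2 scale (SD over arrays), whereas another was below it on all of them, at -0.08 ± 0.05. These positions are the same on all arrays and therefore in both groups.

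The probes of miR-3574, the reverse complement of miR-210-3p, gave no comparable signal. Its summed intensity was -5.89, -6.39 and -11.6 units on non-loading replicates 1 to 3 and -4.89, -5.47 and -5.29 units on loading replicates 1 to 3. For miR-210 the corresponding sums were 181.2, 204.9 and 176 units and 265, 227 and 248 units. In both groups the array means were thus above 0 for the miR-210 strand and below 0 for the opposite strand. Of the 120 spots of miR-3574, 1 was well above background, an outlier-flagged spot of 28.9 units on loading replicate 2, and the scanner software detected miR-3574 on 0 of 6 arrays and miR-210 on all of them.

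To compare arrays, each array was scaled to the 75th percentile of its own probe means, taken over the 173 probes that every array detected, and the scaled probes were summed per miRNA and put on the log2 scale. miR-210 then stood at 65.8%, 67.4% and 48.7% of that percentile on the non-loading arrays and at 83.1%, 86.4% and 76.4% on the loading arrays. Its log2 scaled signal ranked 38 among the 148 tested miRNAs, those that every array of either group detected. On single arrays the rank was 40, 40 and 43 without loading and 34, 36 and 37 with it. A rank of signal depends on how well each probe binds and is no rank of molecules. The directly neighbouring miRNAs in the order of the mean log2 scaled signal were miR-125a-5p (-0.46) and miR-146b (-0.50) above miR-210 (-0.51), and miR-26b (-0.55) and miR-140 (-0.64) below it. Each differed from miR-210 by less than the SD of miR-210 over the non-loading arrays (0.26). miR-140 is best known from cartilage and miR-146b from inflammatory signalling. miR-210 took 0.205%, 0.208% and 0.160% of the summed intensity of the tested miRNAs without loading, and 0.262%, 0.259% and 0.231% with it.

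**Figure D2:**
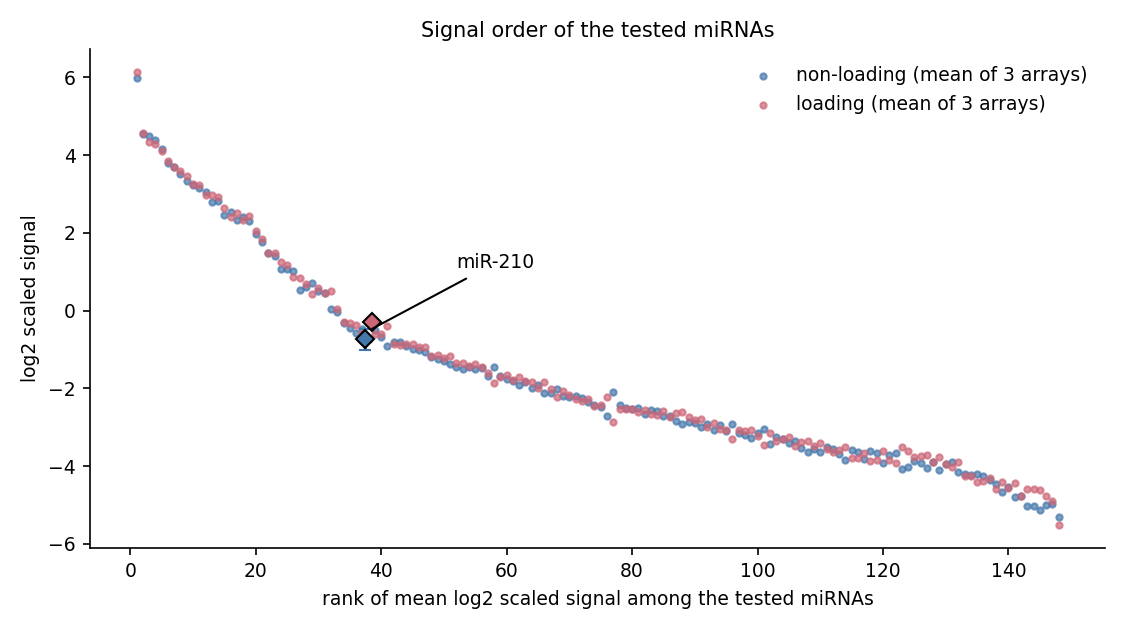
Log2 scaled signal (y axis) of the tested miRNAs in the order of their mean over 6 arrays (x axis, rank 1 is the highest signal), as the mean of the 3 non-loading arrays (blue) and of the 3 loading arrays (red). Diamonds with SD bars mark miR-210 at rank 38, at -0.74 without and -0.29 with loading.

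The loading arrays carried more miR-210 signal than the non-loading arrays. The log2 scaled signal was -0.60, -0.57 and -1.04 on non-loading replicates 1, 2 and 3, and -0.27, -0.21 and -0.39 on loading replicates 1, 2 and 3. The groups did not overlap, and the closest arrays, loading replicate 3 and non-loading replicate 2, were 0.18 apart, less than the pooled SD of 0.20. The means were -0.74 ± 0.26 (SD, n = 3) and -0.29 ± 0.09 (SD, n = 3), a log2 change of 0.45 (standard error 0.15 from limma), or 1.36 times the non-loading signal. The change was 0.46 on the brighter and 0.42 on the dimmer probe. Of the 148 miRNAs tested, 19 (12.8%) had all loading arrays above all non-loading arrays, and miR-210 was among these. Counting either direction, 23 (15.5%) had groups apart. As this contrast was known when miR-210 was chosen, nothing is read from that.

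The non-loading group was spread out by replicate 3. Its unscaled sum of 176 units was close to the 181.2 units of replicate 1, whereas its 75th percentile of 362 units was above the 275 and 304 units of replicates 1 and 2. Accordingly the coefficient of variation of the non-loading arrays was 8.17% for the unscaled sum and 17.1% for the scaled signal. Among the 25 tested miRNAs within 1 log2 unit of the signal of miR-210, the median SD of the non-loading arrays was 0.12 and 0 had a larger SD than its 0.26, while 12 had a larger SD on the loading arrays. Without non-loading replicate 3 the log2 change of miR-210 was 0.28. The groups stayed apart, which leaving out an array could hardly alter. With any 1 of the other arrays left out, the log2 change was 0.40 to 0.53. Among those 25 miRNAs the log2 change ran from -0.11 to 0.51 around a median of 0.08, and 2 had a change of larger size than miR-210.

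Spike-in RNAs gave scales that do not rest on the miRNAs of the cells. Spike-ins added at labelling had a geometric mean intensity over their probes of 625, 852 and 874 units on the non-loading arrays. On the loading arrays it was 961, 680 and 864 units. Relative to these spike-ins miR-210 stood at 29.0%, 24.1% and 20.2% without loading and at 27.6%, 33.4% and 28.7% with it. On this scale the groups overlapped, because non-loading replicate 1 was above loading replicates 1 and 3, and the ratio of the means was 1.22. The spike-ins added at hybridisation were averaged in the same way. Relative to them, miR-210 stood at 5.52%, 5.28% and 3.95% without loading and at 5.79%, 7.37% and 5.80% with it. Here the groups were apart by 0.27 percentage points, and the ratio of the means was 1.29. Without any scaling the sums of 187 ± 15.3 (SD, n = 3) and 247 ± 19.3 units (SD, n = 3) had a ratio of 1.32.

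**Figure D3:**
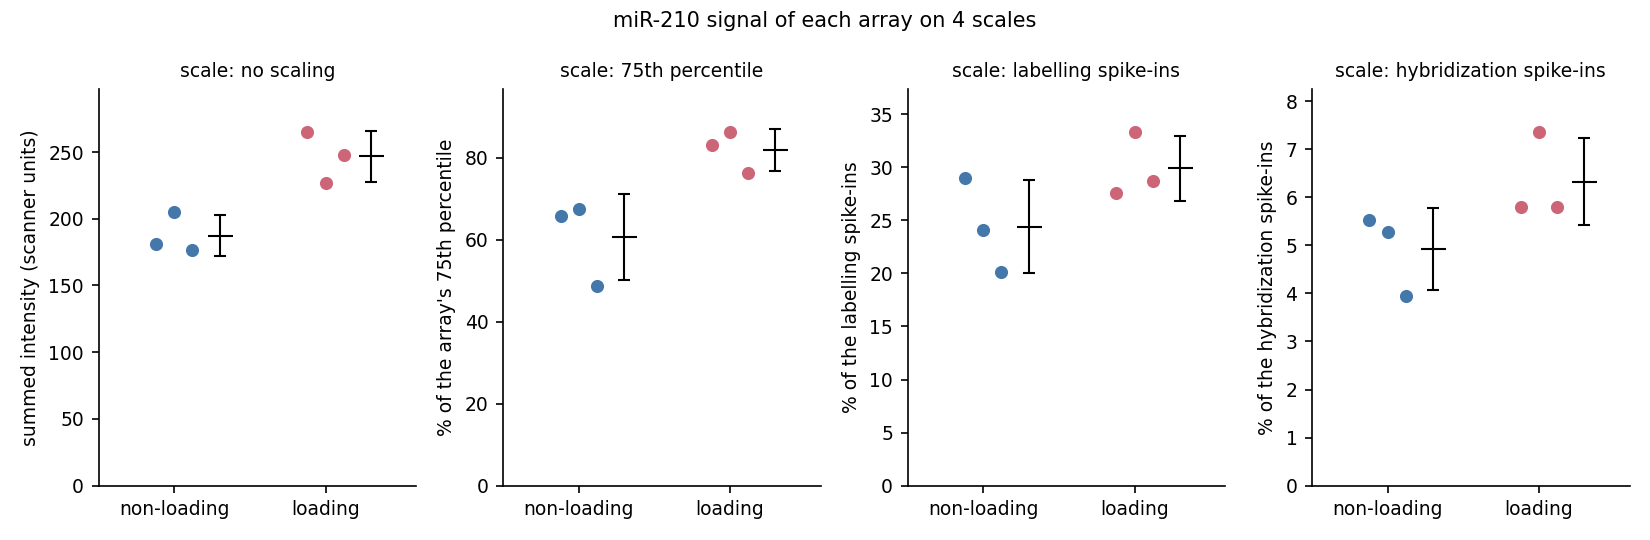
Signal of miR-210 on each array (points) on 4 scales, with bars for the mean ± SD of 3 arrays per group, non-loading in blue and loading in red. From left to right the y axes give the unscaled summed intensity (scanner units), and the sum as a percentage of the array's 75th percentile, of the labelling spike-ins and of the hybridisation spike-ins; the groups overlap on the third scale only.

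Row 1 of the slide carried loading replicate 1 beside all 3 non-loading arrays, and row 2 carried the other loading arrays, so row and group are largely confounded. Within row 1 the log2 difference of loading replicate 1 from the mean of the non-loading arrays was 0.47. Columns 1 and 2 each held 1 array of both groups, with differences of 0.39 and 0.18. As the groups did not overlap, each of these within-slide differences had to be positive, so their sign says nothing about slide position. With 1 loading array in each they have no replicate check.

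Of the other settings of processing and design, 15 changed the array values of miR-210. The change was positive under 14 of these and the groups were apart under 12. All settings use the same arrays, and some coincide for miR-210, such as the brightest probe and the bright probe only. The counts are thus no counts of separate checks. With normexp background correction, a model-based subtraction of the local background, the log2 change was -0.091 and the groups overlapped. Under that setting the median change of all tested miRNAs was -0.45, so miR-210 lay 0.36 above it, against 0.38 above a median of 0.06 as reported. The local background of single spots reached 109535 units on non-loading replicate 3, 27316 on loading replicate 2 and 7260.5 on non-loading replicate 1, against 25 to 27 on the other arrays. With such outlying background values replaced, normexp gave a change of 0.30 with the groups apart. With the 75th percentile over all probes, which moved the median of all miRNAs to -0.09, and with the labelling spike-ins, which moved it to -0.08, the groups overlapped at changes of 0.29 and 0.30. Both settings shift all miRNAs of an array alike, so the distance of miR-210 from the median of all could not move.

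**Figure D4:**
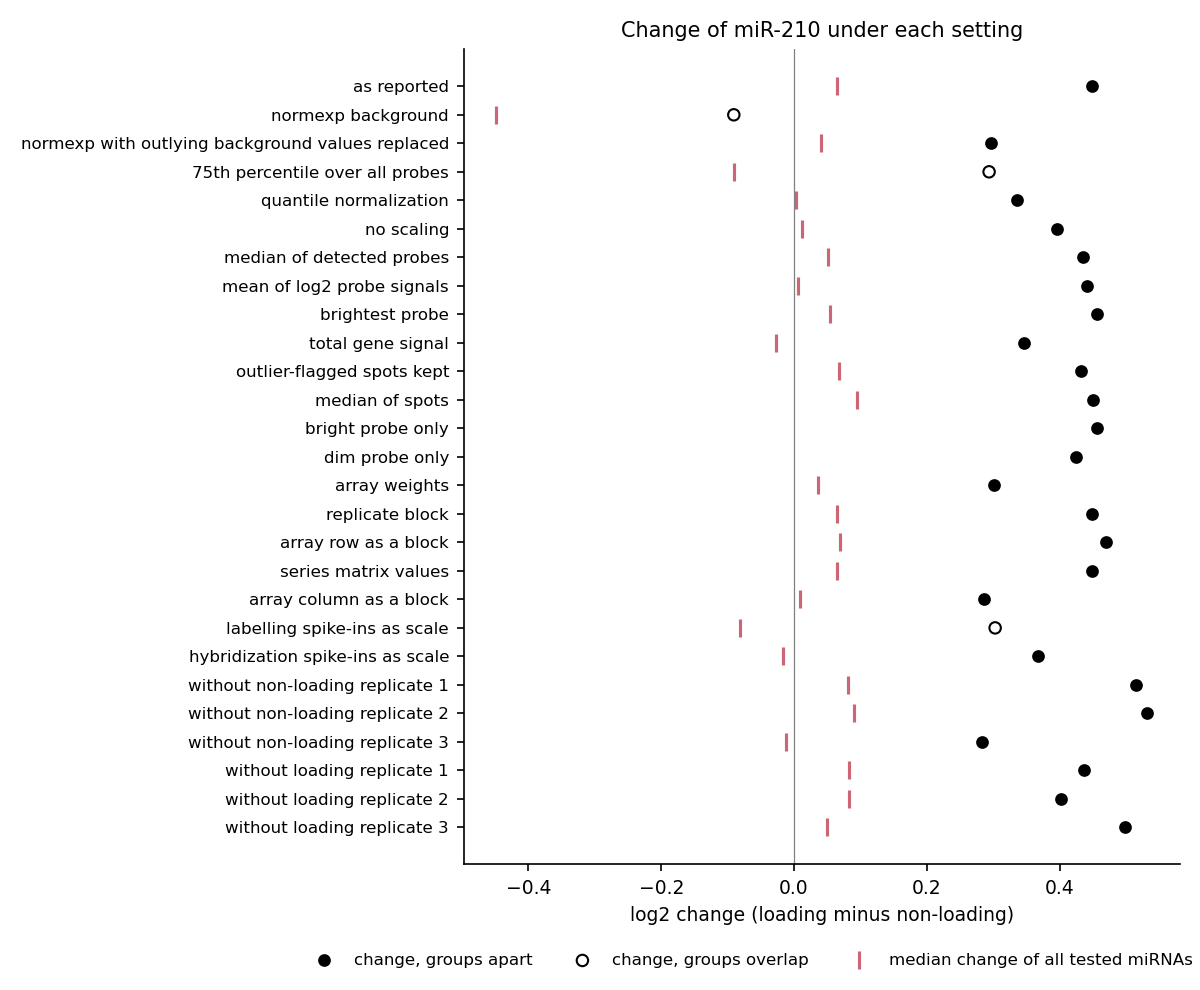
Log2 change of miR-210 (loading minus non-loading) as reported and under each other setting, including each array left out in turn; filled circles mark settings in which all loading arrays were above all non-loading arrays, open circles overlapping groups, and red ticks the median change of all tested miRNAs where it was computed. The change was negative under normexp background correction only, at -0.091, where the median of all was -0.45.

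The miRNAs whose log2 profile over the 6 arrays was most like that of miR-210 were miR-1249, miR-410, miR-3085, miR-872 and miR-132. Likeness was the root mean square difference between profiles centred on their own means. It was 0.09, 0.12, 0.12, 0.13 and 0.14 in that order, against a median of 0.27 over the 147 other tested miRNAs. On non-loading replicate 3, the array with the highest 75th percentile, the centred value was -0.53 for miR-210, and -0.47, -0.36, -0.62, -0.38 and -0.30 for the 5 miRNAs. Low values there follow from the choice by likeness, and all profiles share that array's scale. miR-410 and miR-3085 were detected on 2 of the 3 non-loading arrays and passed the detection filter only through the loading group. The first 4 were dim, at signal ranks of 114 to 129, while miR-132, which is known to respond to CREB, had a signal close to that of miR-210, at rank 41. Its log2 change was 0.51, with an SD of 0.04 in each group.

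Other miRNAs listed here as raised in hypoxia had log2 changes between -0.17 and 0.31, beside 0.45 for miR-210. A list of 14 miRNAs known to be raised in hypoxia (miR-21, miR-23a/b, miR-24, miR-26a/b, miR-27a/b, miR-103, miR-107 and miR-181a/b/c/d) had 12 members that passed the detection filter, and miR-181c and miR-181d were detected on no array. In limma 0 of the 12 had an adjusted p under 0.05, where 0 of all 148 (0%) did, with 14 of the 148 (9.46%) at an unadjusted p under 0.05 and 2 past adjustment by the methods' test. At an unadjusted p under 0.05, 2 of the 12 were higher under loading and 0 lower, beside 8.78% of all tested miRNAs higher at that threshold. These were miR-24 and miR-27b, which are processed from shared precursors with miR-23. The log2 scaled signal of miR-24 was 2.79 ± 0.07 (SD, n = 3) without and 2.99 ± 0.06 (SD, n = 3) with loading, and the groups did not overlap. That of miR-27b was 0.53 ± 0.18 (SD, n = 3) and 0.84 ± 0.12 (SD, n = 3), with overlapping groups, and both had an adjusted p of 0.486 in limma. miR-21, the brightest of the list and of all tested miRNAs, had a log2 change of 0.15 (standard error 0.09). miR-26a and miR-26b were the members with negative values, at -0.17 and -0.11 (standard errors 0.14 and 0.09). The groups were apart, with loading higher, for 6 of the 12 as reported, beside 12.8% of all tested miRNAs. This count depended on the scale. It was 0 without scaling (6 of all 148), 1 after quantile normalization (13) and 1 with the hybridisation spike-ins (10). It was also 0 with the 75th percentile over all probes, the labelling spike-ins, total gene signals and normexp. In these settings the count over all 148 was 1, 4, 5 and 0 in that order. With outlying background values replaced, normexp gave 7 (17 of all 148).

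The median log2 change of the hypoxia list was 0.12, beside 0.06 over all tested miRNAs and 0.45 for miR-210. Its direction depended on the scale. Values were above 0 for 10 of 12 members as reported and for 9 without scaling, beside 99 and 79 of all 148. They were above 0 for 4 with the 75th percentile over all probes, 5 with the labelling spike-ins and 6 with normexp. Of all 148, 38, 40 and 27 were above 0 in that order. Above the median of all tested miRNAs lay 9 members as reported, a number that a change of scale per array leaves as it is, and 11 with normexp. In the same 4 other settings limma called 0 of the 12 at an unadjusted p under 0.05. Of all 148 it called 4 without scaling, 1 with the 75th percentile over all probes, 5 with the labelling spike-ins and 0 with normexp. With the outlying background values replaced, normexp gave 10 values above 0, beside 111 of all 148. Here limma called 4 of the 12 higher (miR-23b, miR-24, miR-27a and miR-27b), beside 8 of all 148. After quantile normalization it called 1 of the 12, miR-26a, as lower, beside 8 higher and 5 lower of all 148. Without non-loading replicate 3, limma gave an unadjusted p under 0.05 for 1 of the 12 (miR-27b), beside 5 higher and 4 lower of all 148. Without that array 3 of the 12 had groups apart with loading higher, beside 14 of all 148.

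A second list held 11 miRNAs known to act on HIF-1α or its regulators, of which 7 passed the filter. miR-155 is not a name of this array, miR-138 and miR-429 were detected on no array, and miR-18a was detected on 4 arrays but not on all of a group. In limma 0 of the 7 had an adjusted p under 0.05, and 2 were higher and 0 lower at an unadjusted p under 0.05, miR-31 and miR-322, beside 8.78% of all tested miRNAs higher and 0% past adjustment. miR-31, which lowers the HIF-inhibiting hydroxylase FIH, had a log2 scaled signal of 1.06 ± 0.04 (SD, n = 3) without and 1.26 ± 0.03 (SD, n = 3) with loading. miR-322, the rodent counterpart of human miR-424 that lowers the cullin CUL2 and so stabilises HIF-1α, had -1.38 ± 0.08 (SD, n = 3) and -1.17 ± 0.02 (SD, n = 3). Neither had overlapping groups, and both had an adjusted p of 0.486 in limma. Of the brightest members, miR-22 had a log2 change of 0.06 (standard error 0.08) and miR-199a-5p of 0.09 (standard error 0.15), each within its error. All 7 values were above 0 as reported, beside 99 of all 148. The list was not sorted by whether a member raises or lowers HIF-1α, so a shared sign gives no direction of HIF activity. HIF activity was not measured on these arrays. Above 0 were 4 with the 75th percentile over all probes (38 of all 148) or the labelling spike-ins (40), and 3 with normexp (27). In these 3 other settings and without scaling, limma called 0 of the 7 at an unadjusted p under 0.05. Of all 148 it called 1, 5, 0 and 4 in that order. With the outlying background values replaced, normexp gave all 7 above 0, beside 111 of all 148. Here limma called 1 of the 7, miR-31, beside 8 of all 148. After quantile normalization it called 0 of the 7, beside 13 of all 148. The median was 0.17 as reported and 0.10 above that of all tested miRNAs. Without non-loading replicate 3, limma gave 0 of the 7 an unadjusted p under 0.05, beside 5 higher and 4 lower of all 148.

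**Figure D5:**
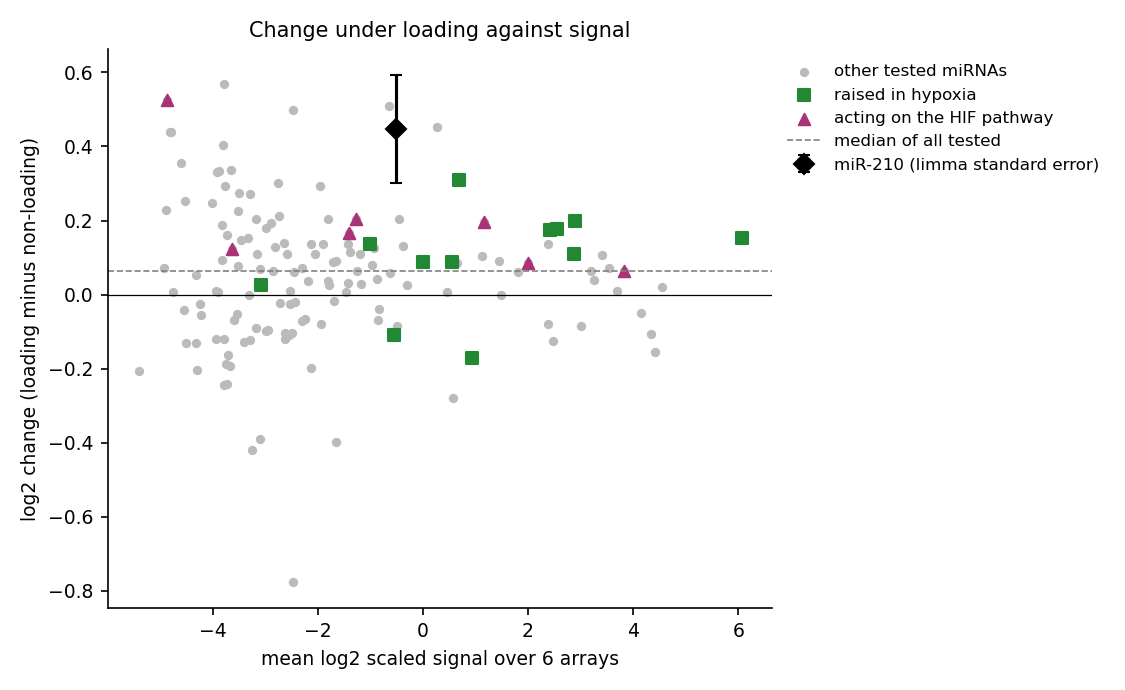
Log2 change under loading (y axis, loading minus non-loading) against the mean log2 scaled signal over 6 arrays (x axis) of the tested miRNAs. The black diamond is miR-210 at 0.45 with its limma standard error, green squares are the 12 tested miRNAs known to be raised in hypoxia, purple triangles the 7 known to act on the HIF pathway, grey points the other miRNAs, and the dashed line is the median of all tested miRNAs at 0.06.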

How the data were processed

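RNA of the 6 rTDSC samples was measured on 1-colour Agilent rat miRNA arrays. The authors deposited the intensity of each spot as background-subtracted by Agilent Feature Extraction 10.7 (10.7.3.1 in the file headers), not scaled between arrays, with flags for outliers and detection. The deposited table of the series holds the same intensities (largest difference 0). Here, controls and spots with an outlier flag were dropped and the remaining spots averaged per probe. Each array was scaled to the 75th percentile of the 173 probes that every array detected (at least 50% of spots well above background), probes were summed per miRNA, 1.87% of the percentile served as floor, and log2 was taken. The floor touched no value of miR-210. A miRNA was tested if every array of either group detected it. Groups came from the sample titles. All 148 tested miRNAs were fitted with limma 3.58.1 (lmFit, eBayes, R 4.3.3) and Benjamini-Hochberg adjustment, and the step was tested on simulated data. The methods' test, Student–Newman–Keuls, is for 2 groups a comparison with pooled variance and was an alternative. Normexp (offset 50) used the median signal, as the files hold no mean signal. The number of arrays limits the precision.

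miR-210 and the lists were chosen with earlier results of these data known. Named were miR-210, the 5 miRNAs of most similar profile, the 2 above and 2 below it in signal, and of each list the members with an unadjusted p under 0.05 and the 2 of highest signal; miR-23b, miR-26a, miR-26b and miR-27a, and the members not tested, were named after their values were seen. Sequences were matched by name to RefSeq (GRCr8).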

Additional observations from a re-analysis of the deposited data

How the results depend on the processing

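No source used here says whether loading and non-loading arrays of equal replicate number were paired. After subtraction of the group means, arrays of equal number correlated at -0.69, -0.47 and 0.11 across 148 miRNAs. Arrays of unequal number were not set beside them, so these values cannot decide it. Under the replicate block the change of miR-210 was 0.45, and limma called 6 miRNAs at an unadjusted p under 0.05, beside 14 as reported. The spike-in scales and the slide column as a block were alternatives chosen after seeing the data. The change of miR-210, 0.45 as reported, was -0.091 with normexp and 0.29 with the column block, and it ran from 0.28 (without non-loading replicate 3) to 0.53 with an array left out. The signal rank of miR-210 stayed between 36 and 39 under the settings tried. Calls at an adjusted p under 0.05 in limma, 0 as reported and with any array left out, numbered 4 with the mean of log2 probe signals and 2 with quantile normalization, the brightest probe, outlier-flagged spots kept, miRNAs detected on all arrays, eBayes with trend and robust, array weights and the methods' test. Calls at an unadjusted p under 0.05, 14 as reported, numbered 0 with normexp, 8 with outlying background values replaced, 1 with all probes in the percentile, 4 unscaled, 8 with total gene signals, 7 with the row block, 5 with the labelling and 4 with the hybridisation spike-ins, and ran from 6 (without loading replicate 3) to 17 with an array left out, being 7 without loading replicate 1. The split into higher and lower was 13 and 1 as reported, 8 and 5 after quantile normalization, 3 and 1 unscaled, 0 and 1 for all probes in the percentile, 3 and 5 for total gene signals, 3 and 2 with the labelling and 3 and 1 with the hybridisation spike-ins. The cause was not tested.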
